A study of Mus musculus with 8 samples.

Results

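The 10 genes described here mark the cells of brain blood vessels, and they were taken by name, with no threshold on measured values in the rule. *Cldn5*, *Pecam1*, *Flt1*, *Slco1a4*, *Slc2a1*, *Ly6c1* and *Tek* are typical of endothelial cells, and *Vtn*, *Pdgfrb* and *Rgs5* of pericytes. All 10 were found among the 38031 genes of the count table. RNA-seq libraries were made from the primary motor cortex (M1) of male Swiss Webster mice, 4 treated with *Fezf2 shRNA* and 4 with *non-silencing shRNA* (the control), with 4 animals per treatment. A lentivirus was injected into M1 at P21 to P25, and the mCherry-positive tissue was collected at P49 to P53, after perfusion with saline, with all layers and the meninges included. In both treatments the vector carried an shRNA in a mir-30 context and mCherry under the rat Synapsin I promoter, which directs expression to neurons. The comparison asks how the transcriptome of mature M1 differs when *Fezf2*, a transcription factor of deep-layer projection neurons, is reduced.

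Endothelial cells line the vessel wall and, in brain, are sealed by tight junctions and carry transporters, which together form the blood-brain barrier. Pericytes are mural cells that sit on capillaries inside the vascular basement membrane, and they are recruited by platelet-derived growth factor from the endothelium. The vessel wall also responds to VEGF, angiopoietin and Wnt ligands, some of which neurons and glia make. In bulk tissue, fewer cells of a type and less RNA per cell cannot be told apart.

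The libraries held 54684016 to 58003814 counts on genes. The targeted gene, *Fezf2*, had 723 ± 35.4 normalized counts in the controls and 591 ± 22.1 in *Fezf2 shRNA*-treated samples (SD, n = 4 each), with no overlap (log2 fold change -0.29, SE 0.0760, adjusted p = 0.0765 in edgeR, where SE is the standard error). The adjusted p was 0.0256 in DESeq2, and with an offset for gene length the log2 fold change was -0.18 (adjusted p = 0.434 in edgeR). Normalized counts are scaled to the mean effective library size, and CPM to a fixed library size. The edgeR test took genes that exceeded 8 CPM in 4 or more libraries, and a gene was called at an adjusted p of at most 0.05 and a log2 fold change of at least 0.2 in either direction. Of 9959 genes tested, 218 (2.19%) were called, 205 of them higher (2.06%) and 13 (0.131%) lower with *Fezf2 shRNA*. In 4.41% of genes tested, as in *Fezf2*, all controls lay above all *Fezf2 shRNA*-treated samples. Fold changes followed the length of the counted interval. The median log2 fold change was -0.12 for genes under 10 kb and 0.29 for genes over 300 kb, and each vascular gene is also given beside genes of like length.

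Of the 10 vascular genes, 6 passed the filter (*Slco1a4*, *Slc2a1*, *Vtn*, *Pdgfrb*, *Rgs5* and *Tek*), and none of these was called, beside 2.19% of all genes tested. Unadjusted p was under 0.05 for 3 of the 6 (*Slc2a1*, *Vtn* and *Rgs5*), all lower, while 7.85% of all genes tested were lower at that level. DESeq2 called 2 of the 6, *Rgs5* and *Slc2a1*, both lower. It called 752 of all genes tested (7.55%) in either direction, and 658 of these were higher. *Cldn5*, *Pecam1*, *Flt1* and *Ly6c1* had more than 8 CPM in 0 to 2 libraries, and their values come from a fit of all 29623 genes with counts, in which 0.287% of genes were called and none of the 10. *Ly6c1* was lower at an unadjusted p under 0.05 in that fit, as were 4.01% of all genes. The log2 fold change was below 0 for 9 of the 10 genes, and 56.6% of all genes over 8 CPM were below 0. The median over the 10 was -0.28, beside -0.027 for all genes over 8 CPM. With all 10 taken from the fit without a filter, the median was -0.27, beside -0.0063 for all 29623 genes. Without control replicate 4, the median over the 10 was -0.18 instead of -0.28. The mean level of the 10 genes was highest in that library.

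**Figure D1:**
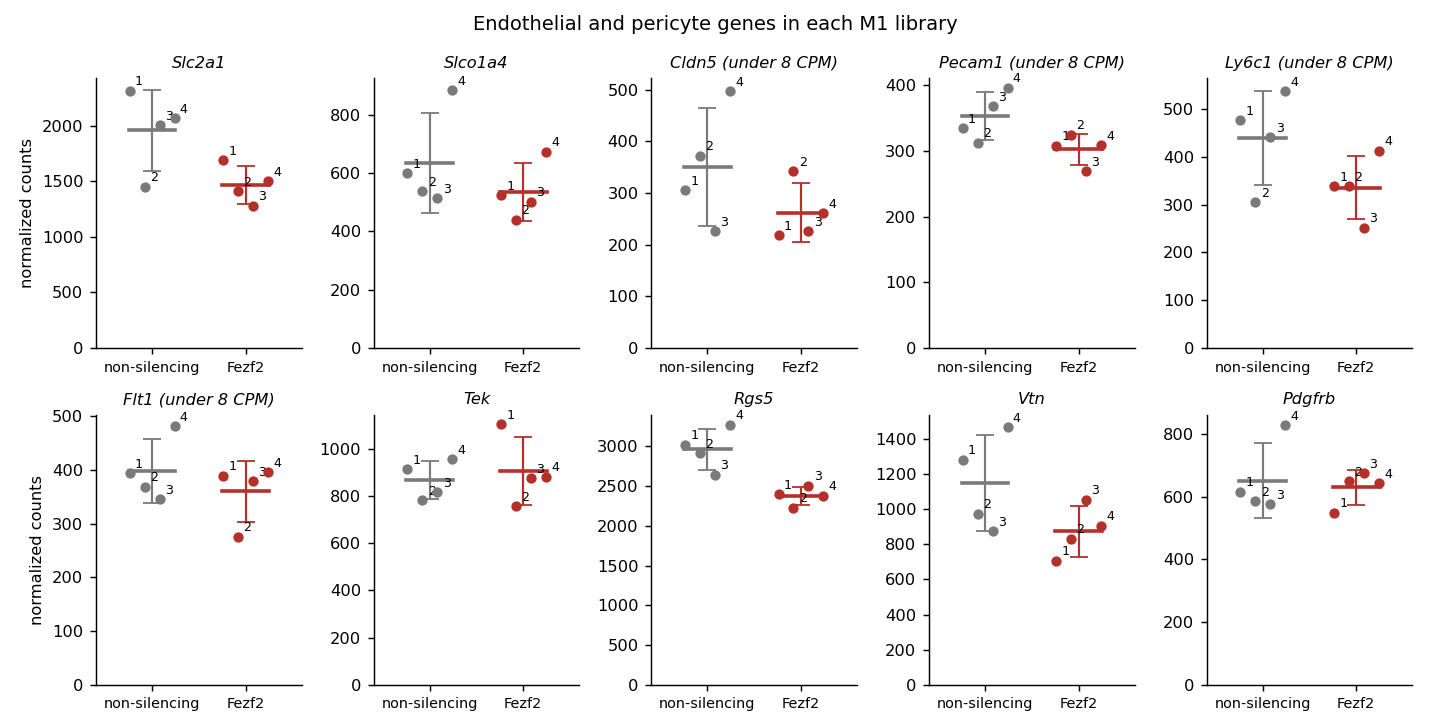
Normalized counts (y axis, from 0) of the 10 endothelial and pericyte genes in each library, by treatment. Points are libraries numbered by replicate, and lines and bars are the mean and SD of 4. *Rgs5* is the gene whose treatments did not overlap, and control replicate 4 was the highest control for 9 of the 10 genes.

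The 2 transporters among the endothelial genes carry glucose and organic anions over the barrier. *Slc2a1* encodes the glucose transporter GLUT1 and lies on chromosome 4 from 119108711 to 119137983, on the plus strand (GRCm38). It had 2315, 1449, 2004 and 2068 normalized counts in the controls and 1688, 1409, 1282 and 1501 with *Fezf2 shRNA*. Control replicate 2 lay among the *Fezf2 shRNA*-treated samples and the other 3 controls lay above all of them, so that the treatments overlapped through 1 library. The means were 1959 ± 365 and 1470 ± 171 (SD, n = 4 each), a ratio of 0.750. The log2 fold change was -0.41 (SE 0.134, 95% interval -0.71 to -0.12, adjusted p = 0.128 in edgeR), and *Slc2a1* passed the threshold in DESeq2 (-0.41, adjusted p = 0.0415) and, in edgeR, once control replicate 2 was left out (-0.53, adjusted p = 0.0230). Without control replicate 1 it was -0.32 (adjusted p = 0.281 in edgeR), the value nearest 0 of those with single libraries left out, and without control replicate 4 it was -0.39. With an offset for gene length it was also -0.39 (adjusted p = 0.328 in edgeR). The antisense gene *Gm12868*, which overlaps 14.5% of the *Slc2a1* interval, had a mean of 945 counts over its own interval, beside 1719 for *Slc2a1*. By default the authors' counting tool does not use strand, and its use was not checked. Without strand, the reads of the 2 genes in the shared part cannot be told apart.

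Both ends of *Slc2a1* had lower means with *Fezf2 shRNA*. The first 24 kb of the gene, of which 3.49% is exonic, had 602 ± 106 normalized counts in the controls and 477 ± 23.5 with *Fezf2 shRNA* (log2 ratio of the means -0.33). The remaining 3′ part, of which 48.9% is exonic, had 1358 ± 299 and 993 ± 155 (log2 ratio -0.45). The treatments overlapped in both parts.

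*Slco1a4* encodes an organic anion transporter of the endothelium and lies on chromosome 6 from 141806722 to 141845468, on the minus strand. It had 598, 538, 512 and 883 normalized counts in the controls and 524, 440, 502 and 672 with *Fezf2 shRNA*. The replicate 4 library was the highest in each treatment, and the other controls lay within the range of the *Fezf2 shRNA*-treated samples. This gave a log2 fold change of -0.24 (SE 0.183, adjusted p = 0.469 in edgeR), or -0.037 without control replicate 4.

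*Cldn5* encodes claudin-5, the main claudin of the endothelial tight junction. It is a gene of 1 exon on chromosome 16 from 18776847 to 18778262, on the plus strand, so that all of its counted interval is exonic. Its 306, 373, 226 and 497 normalized counts in the controls spread over a wider range than the 218, 343, 226 and 262 with *Fezf2 shRNA*. The log2 fold change was -0.41 with an SE of 0.212 (95% interval -0.87 to 0.047, adjusted p = 0.492 in edgeR without a filter). It was -0.20 without control replicate 4 and -0.57 without control replicate 3, which together set most of the spread.

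*Pecam1* encodes CD31, an adhesion molecule at endothelial junctions, on chromosome 11 from 106661797 to 106750628 on the minus strand. It had 334, 313, 368 and 396 normalized counts in the controls and 308, 325, 269 and 308 with *Fezf2 shRNA*. A single *Fezf2 shRNA*-treated sample, replicate 2, lay above the lowest control, and the treatments overlapped by these 2 libraries. Its log2 fold change was -0.21 (SE 0.113, adjusted p = 0.501 in edgeR without a filter), and without control replicate 4 it was -0.16.

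*Ly6c1* encodes a small membrane-anchored protein on the surface of brain endothelium and of some blood cells, on chromosome 15 from 75045013 to 75048830 on the minus strand. Its neighbour *Ly6c2* is a near-identical copy, typical of monocytes, so that reads of the exons of one can align to the other. Their coding sequences in the GENCODE M21 annotation are shown because they set how far the counts of the 2 genes can be separated, with the bases that differ in capitals. The first 270 bases, from the start codon, hold 7 of these.

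Ly6c1: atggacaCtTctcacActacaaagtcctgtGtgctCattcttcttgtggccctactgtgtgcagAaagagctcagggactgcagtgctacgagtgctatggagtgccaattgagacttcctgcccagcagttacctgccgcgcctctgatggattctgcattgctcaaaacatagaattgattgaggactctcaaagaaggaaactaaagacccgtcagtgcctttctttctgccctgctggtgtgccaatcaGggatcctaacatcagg

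Ly6c2: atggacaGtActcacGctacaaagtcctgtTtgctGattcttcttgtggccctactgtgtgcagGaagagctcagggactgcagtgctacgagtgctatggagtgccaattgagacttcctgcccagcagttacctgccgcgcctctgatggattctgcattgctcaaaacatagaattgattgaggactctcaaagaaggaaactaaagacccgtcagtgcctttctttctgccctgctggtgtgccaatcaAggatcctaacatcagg

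The whole coding sequences are 396 bases long and differ at 9 bases (97.7% identity), and the longest stretch without a difference is 188 bases. *Ly6c1* had 477, 306, 441 and 538 normalized counts in the controls and 338, 339, 252 and 413 with *Fezf2 shRNA*. The lowest control lay inside the range of the *Fezf2 shRNA*-treated samples. For *Ly6c1* the log2 fold change was -0.39 (SE 0.170, adjusted p = 0.420 in edgeR without a filter), and without control replicate 4 it was -0.28. *Ly6c2* was counted at a lower level, 68.5 ± 17.7 normalized counts in the controls and 51.2 ± 10.3 with *Fezf2 shRNA* (SD, n = 4 each), with a log2 fold change of -0.41. Since its reads may include those of its copy, the value of *Ly6c1* is uncertain.

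The 2 receptors among the endothelial genes bind VEGF and the angiopoietins. *Flt1* encodes VEGF receptor 1, on chromosome 5, and its counted transcript, from 147654269 to 147725988 on the minus strand, covers the first 72 kb of the gene. It had 393, 369, 345 and 481 normalized counts in the controls and 389, 275, 379 and 395 with *Fezf2 shRNA*. All samples but control replicate 4 and *Fezf2 shRNA* replicate 2 lay between 345 and 395. Between the treatments, over all 8 libraries, the log2 fold change was -0.13 (SE 0.139, adjusted p = 0.723 in edgeR without a filter). Leaving out control replicate 4 gave -0.032, and leaving out *Fezf2 shRNA* replicate 2 gave -0.026. The transcript that spans all of *Flt1*, 164 kb long, had a log2 fold change of -0.19 and an adjusted p of 0.404 in edgeR over transcripts, and its treatments overlapped.

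*Tek* encodes TIE2, the receptor of the angiopoietins, on chromosome 4 from 94739518 to 94874682 on the plus strand. It had 914, 783, 815 and 955 normalized counts in the controls and 1102, 757, 876 and 882 with *Fezf2 shRNA*. *Fezf2 shRNA* replicate 1 was the highest sample and replicate 2 the lowest of all 8, with the controls between them. The means differed by a log2 fold change of 0.061 (SE 0.116, 95% interval -0.19 to 0.32, adjusted p = 0.792 in edgeR), and *Tek* was the single gene of the 10 whose fold change was above 0. *Tek* is also the longest of them, and with an offset for gene length its log2 fold change was -0.080. Without control replicate 4 it was 0.11, and without *Fezf2 shRNA* replicate 1 it was -0.048.

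*Rgs5* encodes a regulator of G-protein signalling and is a widely used marker of pericytes. It lies on chromosome 1 from 169655501 to 169695813, on the plus strand. It had 3022, 2913, 2645 and 3275 normalized counts in the controls and 2397, 2227, 2506 and 2381 with *Fezf2 shRNA*. All 4 controls lay above the highest *Fezf2 shRNA*-treated sample, as they did for 4.41% of all genes tested. The means were 2964 ± 261 and 2378 ± 115 (SD, n = 4 each), a ratio of 0.802. The log2 fold change was -0.32 (SE 0.0737, 95% interval -0.48 to -0.16). The adjusted p was 0.0552 in edgeR, which is just above the threshold. It was under it in DESeq2 (0.00474), in edgeR without control replicate 3 (0.0471), and with a robust estimate of the spread in edgeR (0.0416), chosen after seeing the data. Without control replicate 4 the log2 fold change was -0.26 (adjusted p = 0.132 in edgeR). With an offset for gene length it was -0.32 (adjusted p = 0.152 in edgeR), and with no filter -0.31 (adjusted p = 0.130 in edgeR). *Rgs5* passed the threshold in 5 of 22 alternatives.

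The reads of *Rgs5* lay mostly at its 3′ end. The first 28 kb, of which 2.54% is exonic, had 229 ± 23.9 normalized counts in the controls and 208 ± 9.54 with *Fezf2 shRNA* (SD, n = 4 each), and the treatments overlapped (log2 ratio of the means -0.14). The remaining 11.9 kb, with the last exon and 32.2% exonic bases, had 2762, 2676, 2433 and 3066 normalized counts in the controls. The same part had 2190, 2014, 2289 and 2186 with *Fezf2 shRNA*, with no overlap (log2 ratio -0.33).

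*Vtn* encodes vitronectin, a matrix protein that pericytes make in brain, on chromosome 11 from 78499120 to 78502324 on the plus strand. It had 1281, 974, 875 and 1467 normalized counts in the controls and 705, 832, 1054 and 906 with *Fezf2 shRNA*. Control replicates 1 and 4 lay above every *Fezf2 shRNA*-treated sample, and the other 2 controls lay among them. For *Vtn* the log2 fold change was -0.39 (SE 0.168, 95% interval -0.76 to -0.024, adjusted p = 0.230 in edgeR), and without control replicate 4 it was -0.25. Its first part and the remaining 3′ part gave log2 ratios of the means of -0.41 and -0.37.

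*Pdgfrb* encodes the receptor by which pericytes are recruited. It had 616, 585, 576 and 829 normalized counts in the controls and 549, 650, 676 and 644 with *Fezf2 shRNA*. Apart from control replicate 4, the controls lay within the range of the *Fezf2 shRNA*-treated samples. For *Pdgfrb* the log2 fold change was -0.049 (SE 0.127, 95% interval -0.33 to 0.23, adjusted p = 0.852 in edgeR), and without control replicate 4 it was 0.090. The 3 pericyte genes thus had log2 fold changes of -0.39, -0.32 and -0.049 in the same libraries, and the differences between them were not tested.

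**Figure D2:**
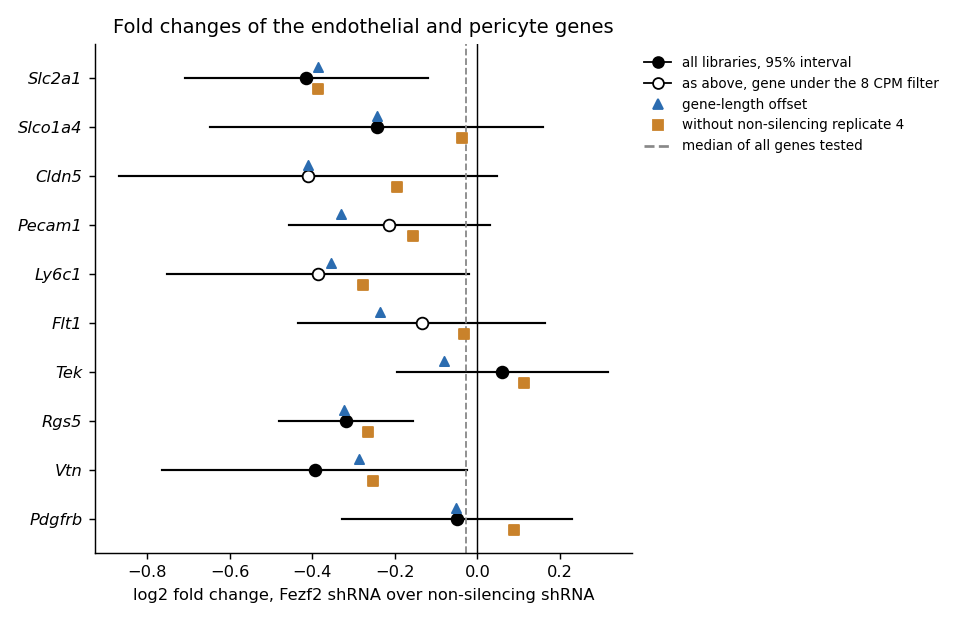
Log2 fold change (x axis, *Fezf2 shRNA* over *non-silencing shRNA*) of each gene with its 95% interval from edgeR. Filled circles passed the 8 CPM filter, triangles are values with a gene-length offset, squares are values without control replicate 4, and the dashed line is the median of all genes tested. The squares of all genes lie to the right of the circles, and those of *Slco1a4* and *Flt1* lie near 0.

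Per kb of the counted interval, averaged over all 8 libraries, *Vtn* had the highest level, 5.61 CPM per kb, followed by *Cldn5* at 3.84 and *Ly6c1* at 1.80. *Rgs5* had 1.18 and *Slc2a1* 1.04 CPM per kb. The other 5 genes had 0.0655 (*Pecam1*) to 0.285 CPM per kb (*Pdgfrb*). The exonic share of the interval was 100% in *Cldn5*, 62.4% in *Vtn* and 2.86% to 13.7% in the last 7 genes, and introns were counted too. The level of a gene per kb was therefore not set against that of another gene in any test.

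Beside genes of like length, 8 of the 10 genes lay under the middle part of their class. *Slc2a1* was 0.34 below the median log2 fold change of genes of 10 to 30 kb, and 0.603% of the 2983 genes in that class were lower. *Rgs5* was 0.33 below the median of genes of 30 to 100 kb, and 0.674% of the 3118 genes of that class were lower. The corresponding shares were 1.49% for *Cldn5*, 1.76% for *Vtn* and 1.86% for *Ly6c1*, all in the class under 10 kb, and 1.604% for *Slco1a4*, 2.21% for *Pecam1* and 7.99% for *Flt1*. *Pdgfrb* and *Tek* lay inside the quartiles of their classes, with 27.5% and 27.99% of genes lower. These positions describe the genes and are not a test, and the 4 genes under the filter are set beside genes that passed it.

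**Figure D3:**
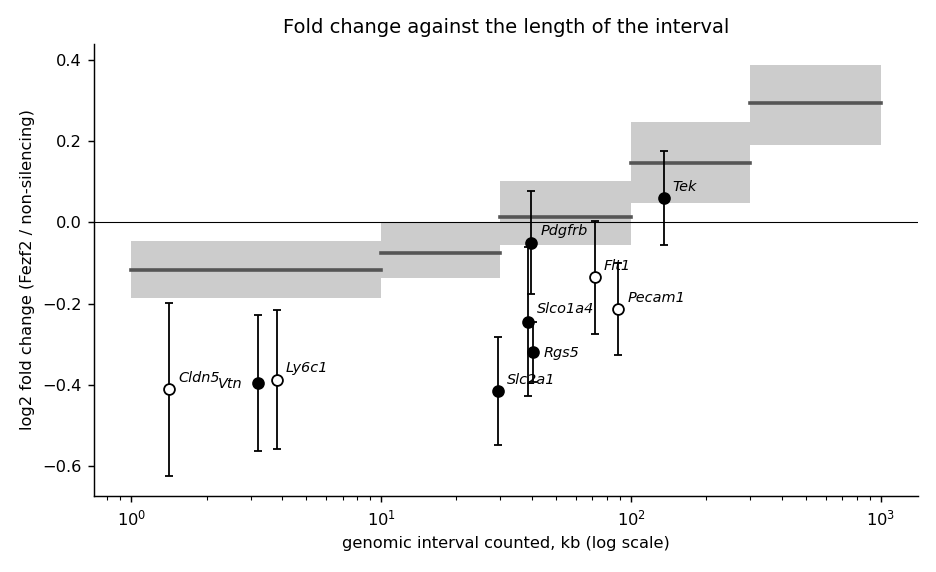
Log2 fold change ± standard error (y axis) against the length of the counted interval (x axis, log scale) for the 10 genes, with open circles for genes under the 8 CPM filter. Grey boxes are the quartiles and bars the median of all genes tested in 5 length classes. *Pdgfrb* and *Tek* lie inside the box of their class and the other 8 genes lie below it.

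The level of the 10 genes differed from library to library within a treatment. Relative to the mean of the 8 libraries, on the scale of log2(CPM + 0.5), the mean of the 10 genes was 0.15, -0.051, -0.040 and 0.40 in the controls and -0.12, -0.16, -0.16 and -0.023 with *Fezf2 shRNA*. Control replicates 2 and 3 lay just below the highest *Fezf2 shRNA*-treated sample, and control replicate 4 stood well above the next control. The endothelial genes (mean 0.40 in control replicate 4) and the pericyte genes (0.41) were both high there. Pearson correlations between pairs of the 10 genes over the 8 libraries, with the treatment means removed, had a median of 0.42 and were above 0 in 42 of 45 pairs. These values share their libraries and their normalization.

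The genes whose levels followed those of the 6 tested vascular genes most closely were not vascular. By Pearson correlation over the 8 libraries, with treatment means removed, the 5 highest of 9953 genes were *Dnah1* (0.981), *Zkscan17* (0.981), *Kcnip2* (0.980), *Mapk1ip1* (0.978) and *Clk1* (0.9752). Of the 100 highest, 1 was in a vascular list, and these lists held 0.583% of the genes compared. Their median correlation was 0.12, beside -0.033 for all other genes.

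Genes of other cell types also differed between the libraries. Of 10 oligodendrocyte genes, 9 were tested and all 9 had a log2 fold change below 0 (median -0.52). At an unadjusted p under 0.05, 6 of the 9 were lower, beside 7.85% of all genes tested, and none was called. The summed level of all 10 was 1175 to 2101 CPM in the controls and 885 to 1422 CPM with *Fezf2 shRNA*. For the 9 tested genes, control replicate 4 was 0.59 above the mean of the 8 libraries, as it was high in the vascular genes. Of 11 genes of blood cells, 5 were tested, with a median log2 fold change of 0.36. The summed level of all 11 was 28.8 to 95.1 CPM in the controls and 50.7 to 125 CPM with *Fezf2 shRNA*. The 5 tested blood genes were lowest in control replicate 4 (-1.26), where the vascular genes were highest. Genes of choroid plexus summed to at most 3.99 CPM in any library. The tested genes of astrocytes (9), microglia (7) and neurons (10) had median log2 fold changes of -0.10, 0.076 and 0.059. None of them was called, beside 2.19% of all genes tested. Relative to the 8 libraries, their means in control replicate 4 were -0.031, -0.34 and -0.073. A single border macrophage gene was tested, at 0.30, and it was -0.14 in control replicate 4. The part of these levels in the differences of the vascular genes was not tested.

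**Figure D4:**
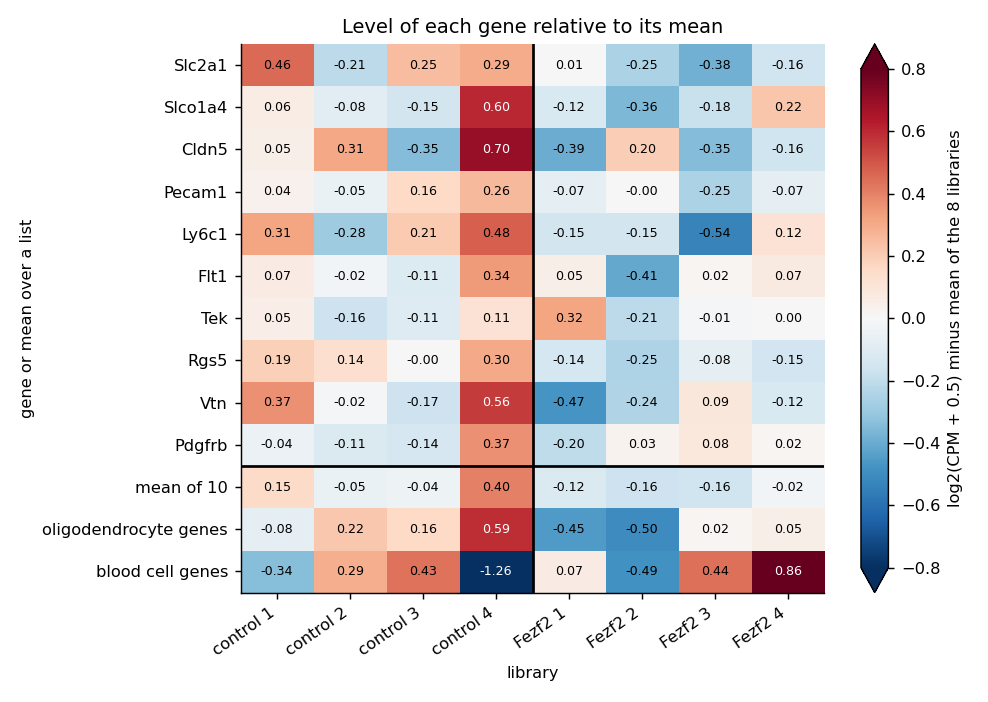
Level of each of the 10 genes in each library relative to its mean over the 8 libraries (colour and printed value, on the scale of log2(CPM + 0.5)), with the mean of the 10 and the means of tested oligodendrocyte and blood cell genes below the line. Control replicate 4 is the highest column for the mean of the 10 genes (0.40) and for oligodendrocyte genes (0.59) and the lowest for blood cell genes (-1.26).

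A list of 30 further endothelial genes held 8 that passed the filter, and none of these was called. Their median log2 fold change was -0.29, and 6 of the 8 were lower at an unadjusted p under 0.05, beside 7.85% of all genes tested. *Egfl7*, a secreted protein of endothelium, had 793 ± 38.8 normalized counts in the controls and 614 ± 70.8 with *Fezf2 shRNA* (SD, n = 4 each). All its controls lay above all *Fezf2 shRNA*-treated samples, as for 4.41% of all genes tested. Its log2 fold change was -0.37 (adjusted p = 0.0717 in edgeR and 0.0136 in DESeq2). With an offset for gene length it was -0.27 (adjusted p = 0.3003 in edgeR). *Podxl*, *Adgrl4*, *Adgrf5*, *Ptprb* and *Cd34* had log2 fold changes of -0.34, -0.31, -0.27, -0.25 and -0.21. *Itm2a* had the lowest value of the 8, -0.75, with an SE of 1.01, and *Tjp1*, a tight junction scaffold that other cells also express, had 0.029. With a filter of 1 CPM, 24 of the 30 were tested and 9 (37.5%) were lower at an unadjusted p under 0.05, beside 6.24% of 16481 genes. None of the 24 was called there (0.674% of all genes were), and their median was -0.26. Without control replicate 4, 3 of the 8 genes over 8 CPM were lower at that level and the median was -0.27. With the filter of 1 CPM and all libraries, *Erg* (0.22), *Eng* (0.093), *Plvap* (0.064), *Tjp1* (0.030) and *Kdr* (0.027) had log2 fold changes above 0. The other tested genes of the list were below 0.

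The other vascular lists had medians from -0.056 to 0.032. The lowest came from 3 tested genes of fibroblasts and meninges and was the value of *Pdgfra*, which is also in the oligodendrocyte list. How much of the reads of these lists came from other brain cells was not tested. Of 20 further barrier transporters 17 were tested, with a median log2 fold change of 0.032 and none called. *Bsg*, which encodes basigin, a partner of monocarboxylate transporters, was lower without overlap between treatments, as were 4.41% of all genes tested. Its log2 fold change was -0.23 (adjusted p = 0.0717 in edgeR and 0.0100 in DESeq2), or -0.13 with an offset for gene length (adjusted p = 0.384 in edgeR). *Bsg* is highly expressed in other brain cells too. *Mfsd2a*, a lipid transporter of barrier endothelium, had the lowest log2 fold change of the 17 (-0.33, adjusted p = 0.293 in edgeR). Of 25 mural cell genes 4 were tested (median -0.0036), from *Cspg4* at -0.080 to *Colec12* at 0.20, and none was called. The 4 included *Rgs4*, which had a mean of 18349 normalized counts in the controls, beside 2964 for *Rgs5*. How far these 4 genes read mural cells in this tissue was not tested. With a filter of 1 CPM, 16 mural cell genes were tested, with a median of -0.092. They ranged from *Mcam* at -0.47 (adjusted p = 0.145 in edgeR) to *Pln* at 0.50 (adjusted p = 0.262 in edgeR).

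Of 30 vascular ligands and receptors, 16 were tested and 1 was called. *Angpt2* encodes angiopoietin-2, a ligand of the receptor encoded by *Tek*. It had 354, 405, 444 and 407 normalized counts in the controls and 583, 598, 642 and 582 with *Fezf2 shRNA*, and every *Fezf2 shRNA*-treated sample lay above every control, as in 7.41% of all genes tested. *Angpt2* rose by 0.58 on the log2 scale (SE 0.0951, adjusted p = 0.0272 in edgeR). It passed the 8 CPM filter through the 4 *Fezf2 shRNA*-treated libraries alone, and with a filter of 1 CPM its adjusted p was 0.0449. With an offset for gene length the log2 fold change was 0.55 and the adjusted p 0.136, and without control replicate 1 or 4 the adjusted p was 0.0971 and 0.0736. *Angpt1*, which encodes the other main angiopoietin, had 385 ± 29.5 normalized counts in the controls and 455 ± 27.3 with *Fezf2 shRNA* (SD, n = 4 each). It was higher without overlap, as were 7.41% of genes over 8 CPM (log2 fold change 0.25, adjusted p = 0.264 in edgeR with a filter of 1 CPM). *Cxcl12*, a chemokine of endothelium and meninges, had the lowest log2 fold change of the 16, -0.59 (SE 0.261, adjusted p = 0.243 in edgeR). *Vegfa* had -0.13 and *Pdgfb*, the ligand of the receptor encoded by *Pdgfrb*, -0.081. With a filter of 1 CPM, *Vegfb* had 0.26 (adjusted p = 0.369 in edgeR) and *Vegfc* 0.23 (adjusted p = 0.346 in edgeR).

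Of 15 vascular basement membrane genes 10 were tested (median 0.019), from *Lamb2* at -0.19 to *Lama4* at 0.25, and none was called. Of 15 genes of vascular fibroblasts and meninges 3 were tested and none was called, and *Ptgds* spread over 5447 ± 2365 normalized counts in the controls and 4985 ± 3535 with *Fezf2 shRNA* (SD, n = 4 each). Over all 135 other vascular genes, 58 were tested, 1 was called (*Angpt2*), beside 2.19% of all genes tested, and the median log2 fold change was -0.037, beside -0.027. The median was further from that of all genes when genes with fewer reads were included. With a filter of 1 CPM it was -0.099 over 113 genes, beside -0.026 for all genes, and with no filter -0.11 over all 135, beside -0.0063.

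**Figure D5:**
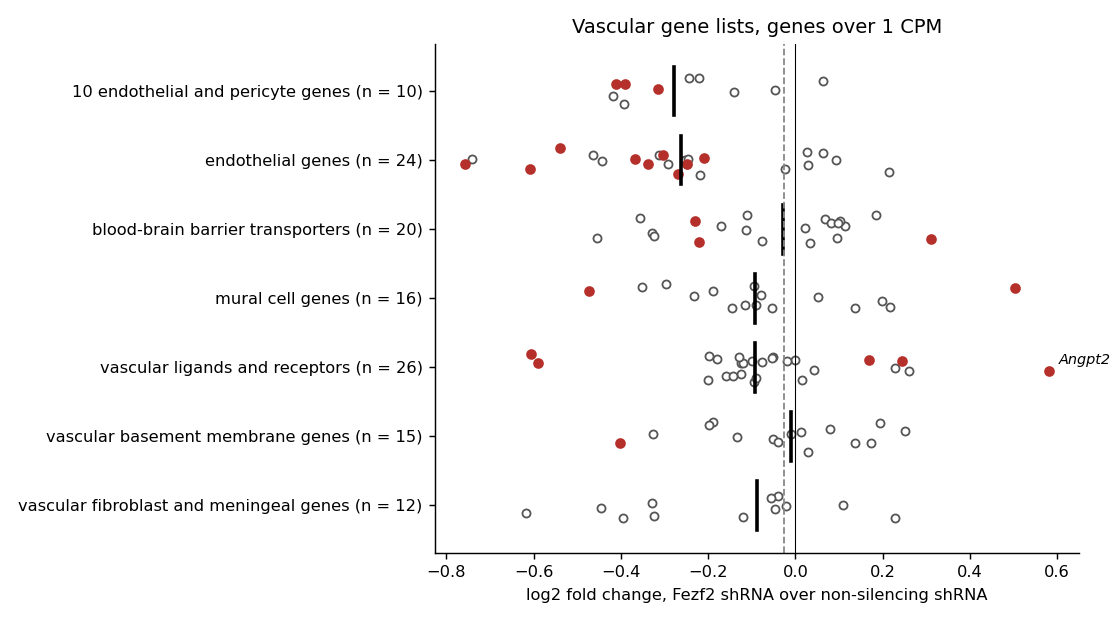
Log2 fold change (x axis) of each gene over 1 CPM in the 10 genes and 6 further vascular lists, with red points for an unadjusted p under 0.05, black bars for list medians and a dashed line for the median of all genes tested. The 10 genes and the endothelial list have medians of -0.28 and -0.26, and *Angpt2* stands at the right of the ligands and receptors.

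In the promoters (250 bases before to 50 after the start, RefSeq on GRCm38.p6) entries were found for 8 of the 10 genes. The letters AGGAAG, which hold the core that ETS factors of endothelium bind, or their reverse complement CTTCCT were present in 3 of the 8 (*Flt1*, *Ly6c1* and *Slco1a4*) and in 35.4% of all 32851 promoters. The letters ACAAAG or CTTTGT, a core of SOX factors, were present in 2 of the 8 (*Ly6c1* and *Tek*) and in 18.7% of all promoters.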

How the data were processed

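Tissue of M1 was profiled by RNA-seq of total RNA, with 4 libraries per treatment. According to the labels and the study's methods, the authors used bcl2fastq 1.8.4, trimmed adapters with fastq-mcf and mapped reads to mm10 with TopHat2 2.1.1. The deposited counts were assigned by the authors per Ensembl transcript with bedtools 2.26.0 (multiCov). By default it counts every read in the interval of a transcript, introns included, on both strands. Whether the authors' counts used strand was not checked. Whether reads with several alignments were kept is not given in the sources used here. A second deposited table holds the authors' fold changes and p-values from DESeq2 1.10.1 in R 3.2.5 and was not used.

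Transcripts were joined to genes by GENCODE M21 (91320 of 94647 transcripts, with 1.82% of counts unmatched and left out), each gene being taken by its transcript of lowest Ensembl number. Tests used edgeR 4.0.16 in R 4.3.3 (TMM, quasi-likelihood test, Benjamini-Hochberg adjustment) with no covariate, for genes exceeding 8 CPM in 4 or more libraries. Adjusted p-values cover all genes of a fit. The alternatives, in the closing section, included DESeq2 1.42.0, other scalings, filters and transcripts, the replicate block, a gene-length offset (loess per library, span 0.3) and each library left out. Parts of genes came from the difference between nested transcripts. Figures used Python 3.11.15 with matplotlib 3.10.9. The edgeR steps were tested on simulated data.

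The members and lists were chosen with earlier results of these data known. Named are all 10 genes, *Fezf2*, from each other list the called genes or else those with the highest and lowest fold change, and the 5 genes most like the mean of the 6 that passed the filter. A gene under this rule is not reported here. *Egfl7*, *Podxl*, *Adgrl4*, *Adgrf5*, *Ptprb*, *Cd34*, *Erg*, *Eng*, *Plvap*, *Kdr*, *Bsg*, *Rgs4*, *Mcam*, *Pln*, *Angpt1*, *Vegfa*, *Vegfb*, *Vegfc*, *Pdgfb* and *Ly6c2* were named after their values were seen. The deposited record gives 4 animals per treatment, and each library was taken as 1 animal. The depth of 54684016 to 58003814 counts per library gave the 10 genes 216 to 3367 counts each, and the spread between replicates exceeded the counting error for most of them.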

Additional observations from a re-analysis of the deposited data

Results flagged for a closer look

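In 20 groups of 4 libraries (10 genes in each treatment), a single library stood far from the other 3 in 2, and chance alone gives about 1 in 20. *Flt1* had 275 normalized counts in *Fezf2 shRNA* replicate 2 and 379 to 395 in the other *Fezf2 shRNA*-treated samples. *Pdgfrb* had 829 normalized counts in control replicate 4 and 576 to 616 in the other controls.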

How the results depend on the processing

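Of 220 values of the 10 genes under 22 alternatives each, 205 kept their direction and side of the threshold, 8 passed it in addition (*Rgs5* or *Slc2a1*) and 7 changed sign, all in genes that were not called. The 205 include the fit with no filter for the 4 genes under the filter, which is the reported fit itself. *Tek* was -0.080 with the length offset and -0.083 with the length offset and block together. With single libraries left out, *Tek* ranged from -0.048 (*Fezf2 shRNA* replicate 1) to 0.14 and *Pdgfrb* from -0.098 to 0.090 (control replicate 4), and was 0.011 with *Fezf2 shRNA* replicate 1 left out. With the most exonic transcript, which for these genes is a short one with few reads, *Pecam1* was 0.25 and *Flt1* 0.55. The number of the 10 genes called, 0, became 2 in DESeq2 with or without its prior, and 1 with an adjusted p of at most 0.1, with TMM without the 10 genes with most counts and with the robust spread (the last chosen after seeing the data), and 0 to 1 when single libraries were left out. The number of other vascular genes called, 1, became 3 in DESeq2 with or without its prior and with an adjusted p of at most 0.1, 0 with the length offset, with that offset and the block together and with the most exonic transcript, and 0 to 4 when single libraries were left out. All genes called, 218, became 752 and 734 in DESeq2 without and with its prior, 563 at an adjusted p of at most 0.1, 111 with a filter of 1 CPM, 85 with none, 115 with the most exonic transcript, 2 with the length offset, and, with single libraries left out, 0 (control replicate 1) to 401 (control replicate 2). With any *Fezf2 shRNA* replicate left out, *Angpt2* did not pass the 8 CPM filter.

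The deviations of libraries with the same replicate number correlated at 0.33, 0.10, -0.13 and 0.17, not every library correlated best with its own number, and the numbers were not taken as pairs. With the replicate number as a block, 89 genes were called in all, 0 of the 10 genes and 1 of the other vascular genes.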
